A study of Mus musculus with 4 samples.

Results

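Genes of antigen presentation by major histocompatibility complex (MHC) class II were described on expression arrays of sorted splenic T cells. The 6 genes were Cd74, H2-Aa, H2-Ab1, H2-Eb1, H2-DMa and Ciita. They were picked from measured values, because class II signal stood out on the array labelled wildtype CD8, so their level on that array is a description and is given no test. All 10 probe sets that the platform annotation assigns to one of these symbols were used, of 22690 on the array, and the 6 genes are among 12393 that could be named. The description held for 4 of the 6 by a wide margin and for Ciita at a low signal. H2-DMa did not stand out on that array.

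The cells came from spleens of untreated C57BL/6 mice and were sorted by flow cytometry with antibodies to CD44, CD4 and CD8. The 4 groups were CD4 and CD8 T cells labelled Gfi1 knockout and CD4 and CD8 T cells labelled wildtype, each group being 1 array of RNA pooled from 2 mice. Gfi1 encodes a transcriptional repressor with zinc fingers that acts in blood cell lineages. The labels give no age and no description of the allele. No group has a replicate, so no difference could be set against a spread between animals and no p-value is given. Every cell population is labelled CD44 low, the state of naive T cells, but Cd44 signal was high with the wildtype label, at 8136 in CD4 and 5740 in CD8 cells, and low with the knockout label, at 196 and 252. The sample titles end in N for both knockout arrays and in M for both wildtype arrays, and the labels do not explain these letters. A contrast of the labelled genotypes therefore cannot be told apart from this difference in Cd44. Gfi1 signal was no lower with the knockout label, at 2891 against 2272 in CD4 and 2447 against 1158 in CD8 cells, and where its probe set lies relative to the deleted part is not given in the labels. Cd4 and Cd8a matched the subset labels. Median signals of the arrays ran from 189 to 235.

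MHC class II molecules are pairs of an alpha and a beta chain that present peptides from endosomes to CD4 T cells. The invariant chain, encoded by Cd74, stays bound to new class II molecules on their way to the endosome, where H2-DM exchanges its last fragment for peptide. Dendritic cells, B cells and macrophages carry these molecules constitutively, and resting mouse T cells are known for having little or none. Transcription of the chains, of Cd74 and of H2-DM depends on CIITA, a coactivator that docks on RFX, CREB and NF-Y proteins bound to a conserved pair of promoter elements, the X and Y boxes.

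Promoters of class II genes are shown to describe these elements, and no link between the elements and the array signals was tested. The RefSeq promoter table (GRCm38.p6) gives windows from 250 bases before to 50 after a gene's start. Windows were taken from it for 8 of 12 class II genes looked for, 3 of them members. No window was taken for Cd74, H2-Ab1, Ciita and H2-Ea. The search skipped the chromosome that carries Cd74, so it does not tell whether a window for Cd74 exists. Capitals mark GATTGG, the core of the Y box, and AGCAAC, a core of the X box, or its shorter form GCAAC in H2-Aa, where both stand in this order with 10 to 30 bases between them. H2-Aa lies at chr17:34287774-34288073 on the minus strand, H2-Eb1 at chr17:34305617-34305916, H2-Oa at chr17:34092129-34092428 and the first start of H2-DMa at chr17:34122582-34122881, all 3 on the plus strand.
H2-Aa: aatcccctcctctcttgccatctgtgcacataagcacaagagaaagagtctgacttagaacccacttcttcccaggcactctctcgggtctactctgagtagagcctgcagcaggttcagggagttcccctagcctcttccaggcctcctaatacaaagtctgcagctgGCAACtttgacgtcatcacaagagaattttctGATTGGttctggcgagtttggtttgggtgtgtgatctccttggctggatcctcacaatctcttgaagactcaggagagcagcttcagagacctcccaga
H2-Eb1: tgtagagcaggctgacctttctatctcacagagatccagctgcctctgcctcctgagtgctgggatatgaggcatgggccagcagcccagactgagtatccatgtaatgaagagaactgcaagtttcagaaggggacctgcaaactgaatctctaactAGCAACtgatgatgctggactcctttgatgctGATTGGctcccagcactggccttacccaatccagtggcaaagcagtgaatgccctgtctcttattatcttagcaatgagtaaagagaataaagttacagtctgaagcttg
H2-Oa: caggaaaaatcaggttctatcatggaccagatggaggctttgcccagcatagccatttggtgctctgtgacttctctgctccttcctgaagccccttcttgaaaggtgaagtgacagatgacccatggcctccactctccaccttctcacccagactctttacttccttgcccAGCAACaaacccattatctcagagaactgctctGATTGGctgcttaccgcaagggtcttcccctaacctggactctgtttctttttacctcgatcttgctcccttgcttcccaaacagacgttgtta
H2-DMa: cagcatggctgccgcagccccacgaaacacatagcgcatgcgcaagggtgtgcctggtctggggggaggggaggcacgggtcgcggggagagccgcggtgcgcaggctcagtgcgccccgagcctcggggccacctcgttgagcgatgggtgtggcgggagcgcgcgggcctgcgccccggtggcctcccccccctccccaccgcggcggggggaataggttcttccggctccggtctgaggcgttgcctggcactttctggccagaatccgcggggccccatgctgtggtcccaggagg

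In H2-Aa 27 bases separate the marked cores, in H2-Eb1 26 and in H2-Oa 27, and the Y core begins 49, 60 and 44 bases before the start. The pair of AGCAAC and GATTGG was found in H2-Eb1, H2-Oa, H2-Ob and H2-Eb2, and H2-Aa held the pair only with the shorter core, which was chosen after the sequences were read. Over all 32851 windows, searched on both strands, 0.137% held the pair with AGCAAC and 0.356% with GCAAC, while 16.1% held GATTGG, 14.8% AGCAAC and 35.2% GCAAC anywhere. Neither H2-DMa window held the pair, and the second one, at chr17:34125268-34125567, held GATTGG alone. Bases outside these windows were not searched, so the windows do not tell whether H2-DMa has the pair elsewhere. H2-DMb1 and H2-DMb2 also held GATTGG without either X core in that window. A match is a description of these letters and not of binding.

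Cd74 had by far its highest signal on the array labelled wildtype CD8. It read 16735 there, 1576 in wildtype CD4, 1354 in knockout CD4 and 593 in knockout CD8 cells. The wildtype CD8 array was 10.6-fold above the nearest other array, wildtype CD4, and 28.2-fold above knockout CD8. The arrays of CD4 cells lay close to each other, and the array labelled knockout CD8 was the lowest of the 4.

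H2-Aa, the alpha chain gene of the I-A molecule, was likewise highest on wildtype CD8 and lowest on knockout CD8. Its first probe set read 12284 on wildtype CD8, 1357 on knockout CD4, 1254 on wildtype CD4 and 380 on knockout CD8, so wildtype CD8 was 9.06-fold above the nearest array and 32.4-fold above knockout CD8. A second probe set read 6562 on wildtype CD8, 395 and 271 on the CD4 arrays labelled wildtype and knockout, and 131 on knockout CD8. Both probe sets put wildtype CD8 highest and knockout CD8 lowest, and they differ only in which CD4 array was the higher.

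H2-Ab1, the beta chain gene of I-A, has 3 probe sets, which agreed on the highest and the lowest array. The brightest read 7185 on wildtype CD8, 575 on knockout CD4, 420 on wildtype CD4 and 249 on knockout CD8. The others read 5051 and 2361 on wildtype CD8, and on knockout CD8 both lay below 93.9, the floor set at the 40th percentile of all values, under which signals are not ordered here. Wildtype CD8 was 12.5-fold above the nearest array by the brightest probe set, and 20.7-fold and 13.7-fold by the others.

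H2-Eb1, the beta chain gene of the I-E molecule, read 10416 on wildtype CD8, 749 on knockout CD4, 531 on wildtype CD4 and 222 on knockout CD8. Wildtype CD8 was 13.9-fold above the nearest array and 46.9-fold above knockout CD8. Its partner gene H2-Ea carries a promoter deletion in C57BL/6 mice and is not transcribed there, and all 3 H2-Ea probe sets were under the floor on each of the 4 arrays. The highest H2-Ea value was 47.7, on wildtype CD8.

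**Figure D1:**
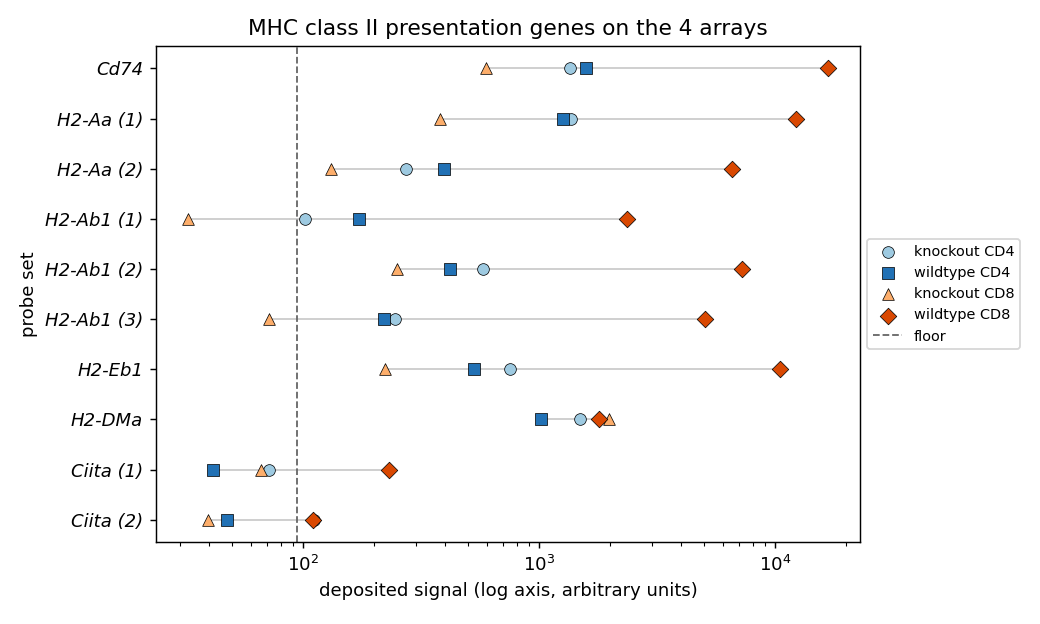
Deposited signal (log axis) of the 10 probe sets of the 6 genes, with a point for each of the 4 arrays, as labelled, and the floor of 93.9 as a dashed line; numbers in brackets tell the probe sets of a gene apart. The wildtype CD8 array lies far to the right for Cd74, H2-Aa, H2-Ab1 and H2-Eb1, at 16735 for Cd74 against 593 on knockout CD8, while the 4 arrays of H2-DMa lie between 1013 and 1978.

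H2-DMa, which encodes the alpha chain of the peptide exchange factor H2-DM, went another way. It read 1978 on knockout CD8, 1783 on wildtype CD8, 1490 on knockout CD4 and 1013 on wildtype CD4. All 4 arrays lay within 2-fold of each other, and both CD8 arrays were above both CD4 arrays. Unlike the chain genes, H2-DMa was highest on the array where they were lowest.

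Ciita, the gene of the class II coactivator, was near the limit of measurement. Its first probe set read 229 on wildtype CD8 and lay below the floor on the other arrays, at 71.3, 66.2 and 41.5, so wildtype CD8 was at least 2.44-fold higher. Its second probe set read 111 on knockout CD4 and 110 on wildtype CD8, with both other arrays below the floor, and so did not set wildtype CD8 apart. The 2 probe sets of Ciita disagree, and the first, with the higher mean, represents the gene in the counts.

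Against all genes, the 4 chain and invariant chain genes lay at the far end of the scale. A gene was counted as standing out where wildtype CD8 exceeded every other array by 2-fold or more, which held for 5 of the 6 members and for 112 of 12393 genes (0.904%). The members were picked on this contrast, so nothing is read from that count. At 8-fold, 11 genes (0.0888%) were left, and 4 of them were Cd74, H2-Aa, H2-Ab1 and H2-Eb1. Only 4 genes had a larger gap than H2-Eb1, and 10 had a larger gap than H2-Aa. The median log2 gap was 3.29 over the members and -0.05 over all genes. At the 2-fold limit, Cdkn1a lay just inside with a log2 gap of 1.005 and Hk2 just outside with 0.998. The same rule counted 269 genes for wildtype CD4 (2.17%), 21 for knockout CD4 (0.169%) and 14 for knockout CD8 (0.113%), with no member among them.

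**Figure D2:**
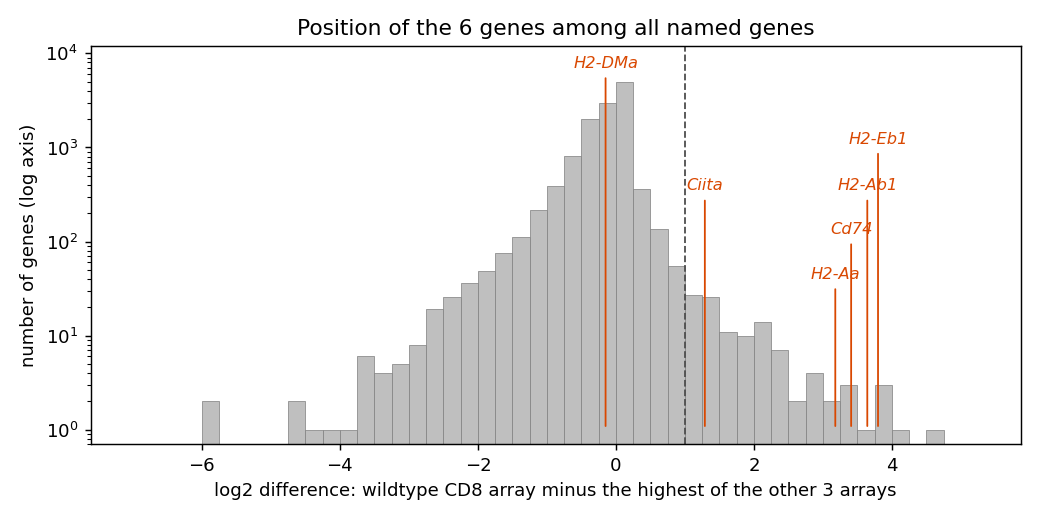
Histogram of 12393 named genes (log axis) by the log2 difference between the wildtype CD8 array and the highest of the other 3 arrays, with the 6 members marked and the 2-fold limit dashed. Cd74, H2-Aa, H2-Ab1 and H2-Eb1 lie between 3.18 and 3.80, Ciita lies at 1.29 and H2-DMa at -0.15.

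On the 3 arrays other than wildtype CD8, the 4 chain and invariant chain genes read lower on the single CD8 array than on both CD4 arrays. The members were picked for standing out against these 3 arrays, so the counts below are a description and nothing is read from them. On the arrays labelled knockout, CD8 against CD4 gave log2 differences of -1.19 for Cd74, -1.84 for H2-Aa, -1.21 for H2-Ab1 and -1.75 for H2-Eb1. These 4 of 6 members were at least 2-fold lower, against 0.888% of all genes. H2-DMa was higher in CD8, at 0.41, and Ciita was below the floor on both arrays by its first probe set. No member was 2-fold higher in CD8, as 1.35% of all genes were. For Cd74, H2-Aa and H2-Eb1 the array labelled knockout CD8 was also at least 2-fold below both CD4 arrays, as for 0.436% of all genes. With arrays centred on their medians H2-Eb1 left this count, at a log2 difference of -0.97 from the lower CD4 array, and it also did so with the floor at the 60th percentile. With a floor at the 60th percentile, 2 members were still at least 2-fold lower in CD8 on the knockout arrays. H2-Ab1 then had -0.35 and H2-Eb1 -0.73, and with averaged probe sets H2-Ab1 had -0.90.

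In CD4 cells the class II signals of the labelled genotypes were less than 2-fold apart. Knockout minus wildtype gave log2 differences of -0.22 for Cd74, 0.11 for H2-Aa, 0.46 for H2-Ab1, 0.50 for H2-Eb1 and 0.56 for H2-DMa, and Ciita was below the floor by its first probe set. None of the 6 members was 2-fold apart, where 1.36% of all genes passed that limit upwards and 5.08% downwards on the array labelled knockout. With such shares few or none of 6 genes would pass, so nothing is read from that count. The share of all genes with a larger absolute difference was 16.4% for H2-DMa, 19.1% for H2-Eb1 and 21.2% for H2-Ab1. It was 39.5% for Cd74 and 51.5% for H2-Aa. The median of the members was 0.28, and that of all genes above the floor on 1 of these arrays or both was -0.02. The probe sets of a gene did not agree on these small differences: the second of H2-Aa gave -0.54, and the 3 of H2-Ab1 gave -0.77, 0.46 and 0.15. With arrays centred on their medians, which moved the median of genes above the floor on both arrays from 0.0085 to 0.31, Cd74 turned to 0.10 and the other 4 ran from 0.43 to 0.87.

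In CD8 cells the contrast of the labelled genotypes holds the array that picked the members and is a description only. Knockout minus wildtype gave -4.82 for Cd74, -5.02 for H2-Aa, -4.85 for H2-Ab1 and -5.55 for H2-Eb1, and 0.15 for H2-DMa. By this contrast 5 of 6 members were at least 2-fold lower, beside 2.8% of all genes, and none higher, beside 0.791%. CD8 against CD4 on the wildtype arrays gave 3.41 for Cd74, 3.29 for H2-Aa, 4.10 for H2-Ab1, 4.29 for H2-Eb1 and 0.82 for H2-DMa, with 5 of 6 members at least 2-fold higher beside 2.18% of all genes, and none lower beside 3.49%. These contrasts share the wildtype CD8 array.

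Most other genes of class II assembly and peptide loading with a probe set of their own did not stand out. Probe sets shared by H2-DMb1 and H2-DMb2, and by H2-Ob and Gm20506, are outside this count. They did stand out on wildtype CD8 and are given under the results flagged for a closer look. Of 12 genes that could be named, 1 stood out on wildtype CD8 (8.33%), beside 0.904% of all genes. It was Ctsh, an endosomal cysteine protease gene, with 736 on wildtype CD8 against 175 on knockout CD4, 161 on wildtype CD4 and a value below the floor on knockout CD8. The probe set of H2-DMb2 alone was also highest on wildtype CD8, at 220, only 1.39-fold above wildtype CD4. It read 158 on wildtype CD4, 116 on knockout CD4 and a value below the floor on knockout CD8. Ctss, whose protease trims the invariant chain in antigen-presenting cells, was high throughout and lowest on wildtype CD8, at 9708 against 10109 to 13076. H2-Oa, which encodes the alpha chain of the H2-DM inhibitor H2-DO and whose promoter holds the X and Y cores shown above, followed the subset: it read 1826 and 1660 on the CD8 arrays labelled knockout and wildtype, and 629 and 656 on the CD4 arrays. Ifi30, a thiol reductase gene of antigen processing, read 2387 on wildtype CD8, 888 on knockout CD8, and 2202 and 1750 on the CD4 arrays labelled wildtype and knockout. Lgmn, the asparagine endopeptidase gene, was lowest on wildtype CD8, at 135 against 883 on knockout CD4.

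Of 17 genes that regulate class II transcription, Irf8 and Spi1 stood out (11.8%), beside 0.904% of all genes. The log2 gaps of the 17 ran from -2.63 to 1.55, with a median of -0.27. Irf8 is also counted among the type 1 dendritic cell markers below. Irf8, an interferon regulatory factor of dendritic and B cells, read 2672 on wildtype CD8, 912 on wildtype CD4, 309 on knockout CD8 and 298 on knockout CD4. Spi1, the PU.1 gene of myeloid and B cells, read 339 on wildtype CD8 against 163 on knockout CD8, 132 on wildtype CD4 and a value below the floor on knockout CD4. The subunits of the RFX complex did not stand out: Rfx5 read 918 on wildtype CD8 and 1232 on wildtype CD4, Rfxank 293 and 558, and Rfxap 1333 and 1248. The NF-Y subunit genes Nfya, Nfyb and Nfyc were within 2-fold over the 4 arrays.

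Class I presentation genes showed no such gap. None of 16 stood out, beside 0.904% of all genes, and their log2 gaps ran from -0.48 to -0.08. B2m, the shared light chain of class I molecules, read 36908 on wildtype CD8, 36909 on wildtype CD4, 37066 on knockout CD8 and 38928 on knockout CD4. None of 9 costimulation genes of antigen-presenting cells stood out. At that share few or none of 16 or 9 genes would pass, so nothing is read from these 2 counts. Cd86 was highest on wildtype CD8, at 640 against 421, 338 and 206, while Cd83 and Pdcd1lg2 were highest on wildtype CD4, at 2709 and 1171. CD74 also serves at the cell surface as a receptor for the cytokine MIF, together with CD44. Mif read between 8696 and 10823 on the 4 arrays, and Cd44 was high on both wildtype arrays, so neither had the pattern of Cd74.

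Markers of other cells that the sort could have held were unevenly high on the wildtype CD8 array, where 0.904% of all genes stood out. Of 9 markers of type 1 conventional dendritic cells, which in mouse spleen carry CD8 alpha, 6 stood out: Cadm1 (621), Cd24a (1016), Naaa (1957), Batf3 (312), Irf8 (2672) and Xcr1 (250). Ly75, Itgae and Tlr3 did not. Ly75 was highest on knockout CD8, at 1041 against 633 on knockout CD4 and 625.5 on wildtype CD8. Tlr3 read 248 on wildtype CD8, 1.91-fold above the next array. The summed signal of the 9 was 8253 on wildtype CD8, 5282 on knockout CD8, 2439 on wildtype CD4 and 1761 on knockout CD4. Of the knockout CD8 sum, 3018 was Itgae, which T cells also express. Of 4 markers shared by dendritic cells, Itgax (1003) and Flt3 (287) stood out, with a summed signal of 1663 against 197 to 336. None of 6 markers of type 2 dendritic cells and none of 5 of plasmacytoid dendritic cells did, as would be usual for lists this short. The part of such cells in the class II signal was not tested, and in a bulk sample fewer cells of a type cannot be told apart from less RNA per cell.

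B cell markers were uneven, beside the 0.904% of all genes that stood out on wildtype CD8. Of 18, Blk (200), Fcrla (210) and Btk (196) stood out, and 9 lay below the floor on all 4 arrays, among them the defining markers Cd79a, Ms4a1 and Pax5. Others were measured without standing out: Cd79b, part of the B cell receptor, read 759 on wildtype CD8, 738 on knockout CD8, 305 on wildtype CD4 and a value below the floor on knockout CD4. Cd22 read 615 on wildtype CD8, 1124 on wildtype CD4, 154 on knockout CD4 and a value below the floor on knockout CD8. Cd72 was highest on knockout CD8, at 1807, and read 1373 on wildtype CD8, 760 on knockout CD4 and 479 on wildtype CD4. Pou2af1, highest on wildtype CD8, read 1995 there, 1322 on wildtype CD4, 657 on knockout CD8 and 627 on knockout CD4. The summed signal of the 18 was 16716 on wildtype CD8, inside the range of 16470 to 18656 on the other arrays, and most of it was Ighm, which was lowest on wildtype CD8, at 10871. Of 19 monocyte and macrophage markers 4 stood out, Lyz1 (674), Lyz2 (285), Tyrobp (883) and Cd68 (342), with a summed signal of 3239 against 1073 to 1770. On all 4 arrays 8 of the 19 were under the floor, among them Cd14, Fcgr1, Mertk, C1qa and Cd163. Csf1r, the receptor gene that defines this lineage, was above it on every array, at 238 on wildtype CD8 against 193 to 202, and Fcer1g read 251 on wildtype CD8 and 248 on wildtype CD4. Of 6 natural killer cell markers Gzma and Klra8 stood out, at 5633 and 221, while Ncr1 was under the floor throughout. On wildtype CD8 the 6 summed to 35385, against 4061 to 27128 on the other arrays. Nkg7 (14569) and Klrd1 (13450) were the largest parts of that sum, and neither stood out. Nkg7 read 10407 on knockout CD8. Klrd1 was highest on knockout CD8, at 15978.5. Klrk1 was highest on wildtype CD4, at 1742 against 1511 on wildtype CD8. None of 8 granulocyte markers and none of 6 erythroid and platelet markers stood out, with sums of 352 against 278 to 379 and 366 against 262 to 451. T cell markers were above the floor on every array for 11 of 11 genes, and none stood out. Their summed signal was 121514 on wildtype CD8 and 121937 to 132795 on the other arrays. At the share of all genes few or none in lists this short would stand out, so nothing is read from the counts of none. The part of these cell types was not tested.

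**Figure D3:**
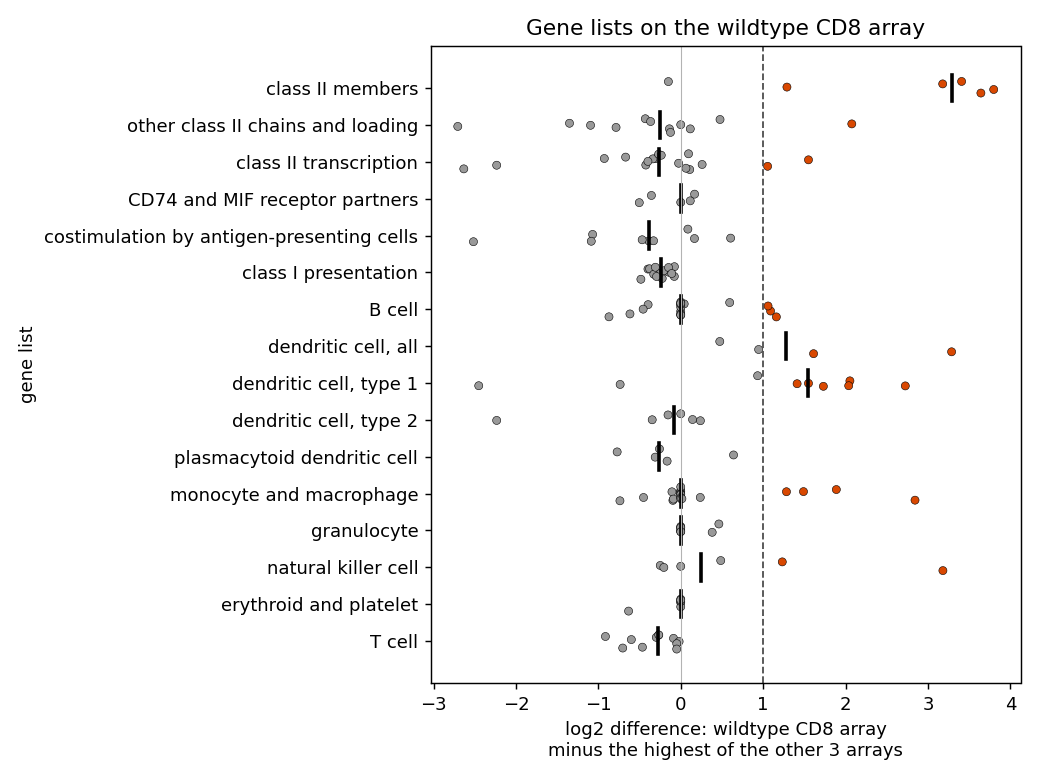
Each point is a gene, placed by the log2 difference between the wildtype CD8 array and the highest of the other 3 arrays, in rows by gene list, with medians as black bars, the 2-fold limit dashed and genes past it in orange. The median is 3.29 for the members, 1.55 for type 1 dendritic cell markers and 1.28 for markers shared by dendritic cells, against -0.24 for class I presentation and -0.27 for T cell markers.

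The genes most like the class II chains over the 4 arrays were sought by the distance of each gene's centred log2 values from the median profile of Cd74, H2-Aa, H2-Ab1 and H2-Eb1. These 4 lay within 0.444 of their own median. The nearest other gene was Plbd1, a phospholipase B domain gene, at 1.07, with 3573 on wildtype CD8 and 215, 103 and a value below the floor on knockout CD4, wildtype CD4 and knockout CD8. It was followed by Alox5ap, which encodes the activating protein of 5-lipoxygenase (1.11), the Ly49 receptor gene Klra7 (1.21), Itgax, the CD11c gene (1.29), Marcks (1.45), Ctsh (1.54), Tbc1d8 (1.59), Plek (1.60), the lysozyme gene Lyz1 (1.61) and the chemokine gene Cxcl9 (1.65). The 4 members define the profile, so their short distances follow from that, and nothing is read from the larger distances of the 10. For Klra7, Lyz1 and Cxcl9 every array but wildtype CD8 was under the floor, which sets part of their distance. With 4 arrays the measure is a description.

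Ranked by the gap on wildtype CD8, the 15 leading genes outside the members held 7 of these 10. Gzmm, a granzyme gene, led with 4443 against 190 on knockout CD8, 23.4-fold, and the others absent from the nearest 10 were Mpeg1, Gzma, Hfe, Cadm1, Aif1, G0s2 and Slamf8. Mpeg1, which encodes a pore-forming protein of macrophages and dendritic cells, read 4610 against 294 on wildtype CD4 and values below the floor on both knockout arrays. Klra7 read 1329, with all other arrays below the floor, at least 14.1-fold higher.

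**Figure D4:**
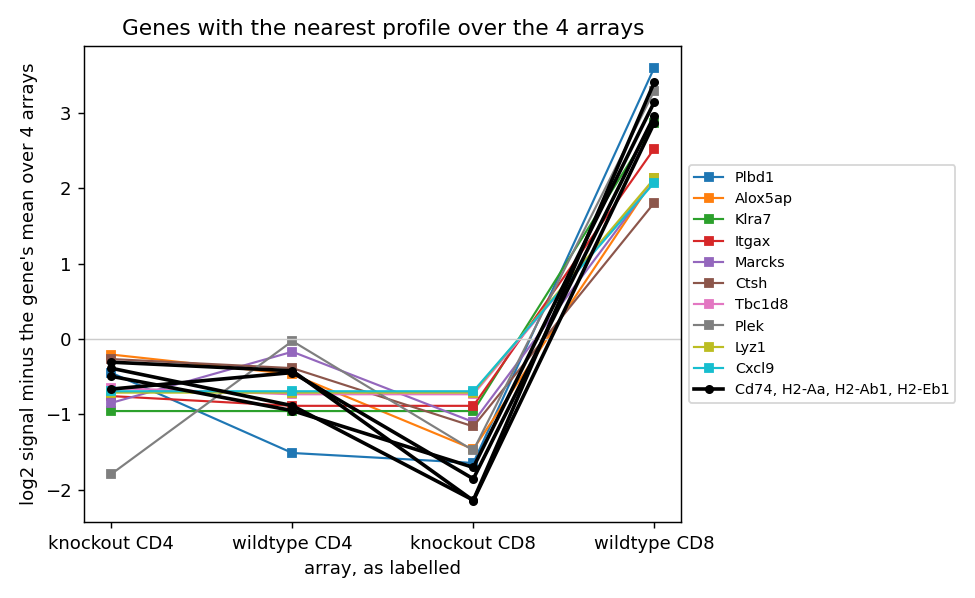
Log2 signal of each gene minus its own mean over the 4 arrays, with values under the floor set to it, for Cd74, H2-Aa, H2-Ab1 and H2-Eb1 (black) and the 10 genes of nearest profile (colours); lines join the values of a gene and imply no order of the arrays. All 14 genes peak on wildtype CD8, and the 4 black lines have their lowest point on knockout CD8.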

How the data were processed

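Biotin-labelled RNA of sorted T cells was hybridised to Affymetrix MOE430A_2.0 arrays, 1 per group. The authors deposited a linear signal intensity for each probe set. GCOS 1.4 and MAS5 are named in the submitters' processing notes; parameters and detection calls are not given in these sources. The 2% trimmed mean of every array is near 1000, which points to scaling of the deposited intensities to a common level. Control probe sets (64) were left out. Of the rest, 20380 have 1 gene symbol in the platform annotation, 691 several and 1555 none listed here; 20351 matched RefSeq (GRCm38.p6), used for current names. A gene was represented by its probe set of highest mean log2 value. Signals under 93.9, the 40th percentile, were set to that floor before log2, and a fold against the floor is a lower bound. No test was run. Counting was tested on simulated data with little noise and planted differences larger than the 2-fold limit. That check does not cover genes near the limit or the floor. The members and lists were chosen with earlier results of these data known. The named genes follow a rule: every member, the 15 largest gaps, the 10 nearest profiles, and the standing-out and defining genes of each list. Other list members were chosen after their values were seen. Among these are Ctss, Ifi30, Lgmn, H2-DMb2, Cd83, Cd86, Cd79b, Cd22, Cd72, Pou2af1, Csf1r, Fcer1g, Ly75, Tlr3, Nkg7, Klrd1 and Klrk1. Alternatives were 2 other floors, log2 of the value plus 16, 2 scalings and averaged probe sets. Software was Python 3.11.15 with pandas 2.3.3, numpy 2.4.6 and matplotlib 3.10.9.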

Additional observations from a re-analysis of the deposited data

Results flagged for a closer look

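For 3 members the arrays labelled knockout lay above those labelled wildtype in CD4 cells and below them in CD8 cells. The log2 difference between the labelled genotypes was 0.11 in CD4 and -5.02 in CD8 cells for H2-Aa, which differ by -5.13. For H2-Ab1 it was 0.46 and -4.85, which differ by -5.31, and for H2-Eb1 0.50 and -5.55, which differ by -6.05. With 1 array per group this difference was not tested, and the CD4 values turn sign with the probe set for H2-Aa and H2-Ab1.

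Class II signal also appeared in probe sets that the annotation assigns to several symbols and that were used for no gene. Both probe sets shared by H2-DMb1 and H2-DMb2 were high on wildtype CD8. One read 303.8 there and 45.0, 27.7 and 13.9 on knockout CD4, knockout CD8 and wildtype CD4, all below the floor, at least 3.24-fold higher. The other read 339.7 against 117 on knockout CD4 and values below the floor on the remaining arrays. A probe set shared by H2-Ob and Gm20506 read 574.3 on wildtype CD8 and 275, 168 and 169 on knockout CD4, knockout CD8 and wildtype CD4. These signals cannot be given to either gene of a pair.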

How the results depend on the processing

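No paired analysis was possible because each group has 1 array and no replicate numbers are given, and leaving out an array would remove its whole group. Under the 6 alternative settings, 4 to 5 members stood out on wildtype CD8; Ciita left the count with the floor at the 60th percentile and with averaged probe sets (log2 gap 0.64), and Cd74, H2-Aa, H2-Ab1 and H2-Eb1 stayed in it under all 6. The count of members at least 2-fold lower in CD8 than in CD4 cells on the knockout arrays fell from 4 to 2 with the floor at the 60th percentile, which by its construction shortens differences that reach below it. Members with knockout CD8 at least 2-fold below both CD4 arrays went from 3 to 2 with that floor and with median centring, losing H2-Eb1. No called difference of a member changed sign. The share of all genes standing out moved from 0.904% to 1.95% with the lower floor (25th percentile), 0.307% with the higher one and 2.28% with log2 of the value plus 16. Over the same alternatives the shares behind the other comparisons also moved by over 1.5 times: in CD4 cells the lower genes of the labelled knockout went from 5.08% to between 2.02% and 12.8%, in CD8 cells from 2.80% to between 0.823% and 10.01%, CD8 against CD4 on the wildtype arrays (higher genes) from 2.18% to between 0.928% and 7.75%, and on the knockout arrays (lower genes) from 0.888% to between 0.242% and 6.86%. Genes with knockout CD8 below both CD4 arrays went from 0.436% to between 0.105% and 3.54%. The share of higher genes among those 2-fold apart between the labelled genotypes was 21.1% in CD4 and 22.02% in CD8 cells as deposited, 47.1% and 40% with median centring and 33.4% and 33.3% after quantile normalization. Signals near the floor, such as those of Ciita, limit what these arrays can order.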
